A study of Mus musculus with 6 samples.

Results

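Expression of 10 genes of the bone morphogenetic protein (BMP) pathway was followed in embryonic mouse lung after deletion of Sin3a in the lung endoderm. They were chosen by name and role, with earlier results of these data known. The set held the ligand genes Bmp2, Bmp4, Bmp5 and Bmp7, and the antagonist genes Grem1 and Bambi. Its response genes were Id1, Id3, Smad6 and Smad7. All 10 were found among the 24341 genes of the deposited expression table. The libraries came from whole lungs of C57BL/6 embryos at E12.5. The 3 mutants were Shh-Cre;Sin3a flox/flox and the 3 controls Shh-Cre;Sin3a flox/+, so both groups carried Shh-Cre and at least 1 floxed allele, and only the controls had a wild-type copy of Sin3a. Shh-Cre drives recombination in the lung epithelium, whereas each library held RNA of all lung cells, so a change in 1 cell type is diluted by the others. The labels do not say whether a library came from 1 embryo or from pooled lungs, and p-values rest on the spread between these libraries.

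BMPs are secreted ligands of the TGF-beta family. They bind pairs of type I and type II serine/threonine kinase receptors, which phosphorylate SMAD effector proteins that enter the nucleus with a shared partner and switch on target genes. Secreted antagonists bind the ligands outside the cell, and several target genes encode inhibitors of the same pathway. In the early lung, Bmp4 is known for its expression at the distal tips of the branching epithelium and in nearby mesenchyme.

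Sin3a encodes the scaffold of a histone deacetylase corepressor complex. It measured 19.5, 18.6 and 18.6 FPKM (read pairs divided by transcript length and library size) in control libraries 1, 2 and 3 and 18.8, 16.3 and 18.8 FPKM in mutant libraries 1, 2 and 3. The groups overlapped (log2 change -0.07, SE 0.09, limma adjusted p = 0.677, exact permutation p = 0.6). The value is summed over every exon and over recombined and other cells, and the labels name no floxed exon, so it does not check the genotypes. Read counts were not used here, so depth is known only relative to control library 1. It lay between 0.504 and 1.28 times that value in the other libraries and was lowest in control library 3 and mutant library 1. The number of genes called by limma depended on the libraries, being 426 with all 6. It was 61 to 66 with a control removed, and 795, 52 and 283 with mutant 1, 2 and 3 removed in turn.

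Bambi was the only gene of the 10 that passed the test, and it rose 1.38-fold in the mutant lungs, a call that depended on the libraries used. Bmp2, Bmp4 and Id3 had higher values in all 3 mutant libraries than in any control, and Bmp5, Bmp7 and Grem1 lower ones, but none of these differences passed the threshold. The inhibitory SMAD gene Smad6 followed Bmp4 closely from library to library. Id1, a standard readout of BMP signalling, overlapped between the groups. Tests used log2(FPKM + 1) in limma over all 12742 genes that averaged 1 FPKM or more, and an adjusted p (Benjamini-Hochberg, 2-sided) under 0.05 counted as changed. 9 of the 10 genes passed this filter, Grem1 being below it. Of those 9, 1 rose and 0 fell, where 3.34% of all tested genes changed (1.71% rose and 1.63% fell). The 2 groups did not overlap for 6 of the 9, 4 higher and 2 lower in mutants, where 29.5% of all tested genes had groups that did not overlap (14.9% higher, 14.6% lower). An unadjusted p under 0.05 was found for 5 of the 9, where the share over all tested genes was 23%. Since the genes were chosen with earlier results of these data known, these counts are a description only. The median log2 change of the 9 was 0.19, beside -0.01 over all tested genes.

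**Figure D1:**
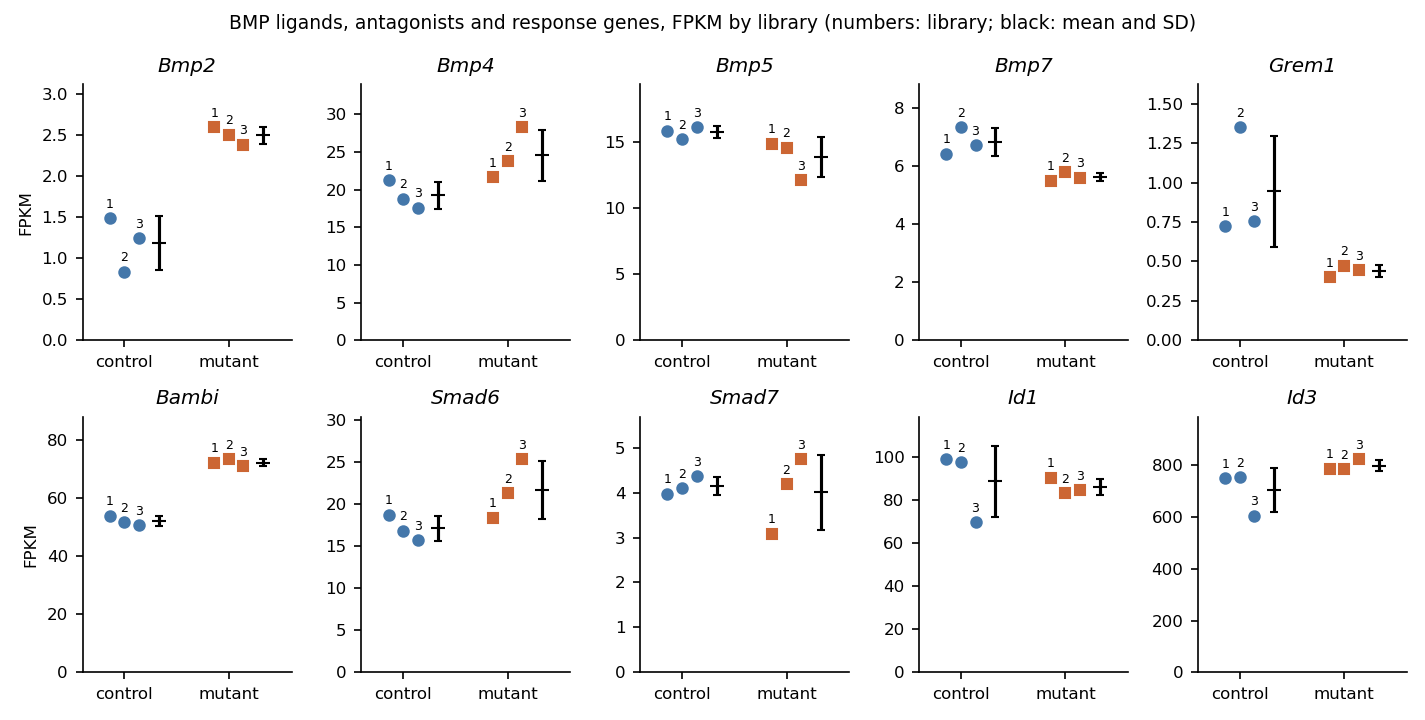
FPKM (vertical axes, from 0) of the 10 BMP genes in the 3 control (circles) and 3 mutant (squares) libraries; numbers name the library, and black marks show the mean and SD of each group. Bambi is higher in all mutant libraries with little spread, Bmp2 and Bmp4 are also above the controls, Bmp7 and Grem1 lie below them, and Id1, Smad6 and Smad7 overlap.

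FPKM is scaled by transcript length, so levels of different genes can be set side by side. In controls the order was Id3, Id1, Bambi, Bmp4, Smad6, Bmp5, Bmp7, Smad7, Bmp2 and Grem1, from a mean of 704 FPKM down to 0.944 FPKM. The mutants had the same order, from 799 FPKM for Id3 down to 0.44 FPKM for Grem1. Among controls, the ranges of Bmp4 and Smad6 overlapped, as did those of Smad6 and Bmp5 and of Bmp2 and Grem1. Among mutants only Bmp4 and Smad6 overlapped as neighbours. Within each library Bmp4 was nevertheless above Smad6, at 1.11 to 1.17 times its value. The order of Smad6 and Bmp5, and that of Bmp2 and Grem1, differed between control libraries. The sum of the 4 ligand genes averaged 42.9 ± 1.78 in controls against 46.5 ± 1.91 FPKM in mutants (SD, n = 3 per group), most of it from Bmp4 and Bmp5.

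Bmp4, the ligand gene with the highest level of the 4, lies on chromosome 14 from 46383520 to 46390669 (GRCm38) in GENCODE. Its deposited locus runs from 46379524 to 46390599. Bmp4 measured 21.2, 18.8 and 17.6 FPKM in the controls and 21.6, 23.8 and 28.3 FPKM in the mutants. The groups did not overlap, but mutant library 1 lay only just above control library 1. The mutant mean was 1.28-fold the control mean, with a log2 change of 0.33 (SE 0.12, 95% interval 0.04 to 0.63) and a limma adjusted p of 0.169. The same deposited locus is given for the gene model Gm15217 on the opposite strand, at no more than 0.23 FPKM in any library. GENCODE also places the antisense gene model Gm15222 over Bmp4. Since strand is not kept by the library kit, fragments of these overlapping genes cannot be told apart.

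Bmp2 encodes a ligand closely related to BMP4 and lies on chromosome 2 from 133552159 to 133562896. It was low, at 1.49, 0.836 and 1.24 FPKM in controls and 2.6, 2.51 and 2.39 FPKM in mutants. The mutant libraries were tightly grouped and all lay above the controls, with a 2.1-fold higher mean. The log2 change was 0.69 (SE 0.15, 95% interval 0.33 to 1.04), the highest of the 9 tested genes, and the limma adjusted p was 0.0572, just over the threshold. With a pseudocount of 0.1 FPKM the log2 change was 1.04 (adjusted p = 0.0643). After removal of globin and small RNA genes and rescaling of the others to equal sums, that p was 0.0224, and the median log2 change of all tested genes moved from -0.01 to 0.11. Relative to that median the log2 change of Bmp2 was 0.67 and that of Bambi 0.49. On this scaling 841 genes were called higher and 176 lower (17.3% lower), beside 218 higher and 208 lower (48.8%) on the deposited scale.

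Bmp5 and Bmp7 encode ligands of another BMP subgroup. Bmp5, on chromosome 9 from 75775365 to 75899017, measured 15.8, 15.2 and 16.1 FPKM in controls and 14.8, 14.6 and 12.1 FPKM in mutants. The controls were close together, and mutant library 3 was the lowest of all. In GENCODE the gene models Gm47723 (same strand) and Gm26903 (antisense) overlap Bmp5, and fragments from shared stretches cannot be told apart. The log2 change was -0.18 (95% interval -0.42 to 0.07, limma adjusted p = 0.357). Bmp7, on chromosome 2 from 172868012 to 172940321, measured 6.42, 7.34 and 6.71 FPKM in controls and 5.49, 5.78 and 5.6 FPKM in mutants. All mutant values lay below the controls, with a log2 change of -0.24 (95% interval -0.47 to -0.004, limma adjusted p = 0.211). The changes of both genes stayed below 0 under each of the 15 alternatives tried for each, at -0.23 to -0.056 for Bmp5 and -0.28 to -0.13 for Bmp7, and none passed the threshold. The rescaling without globin and small RNA genes brought both nearest to 0, and without mutant library 3 the value of Bmp5 was -0.09.

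Bambi encodes a membrane pseudoreceptor that resembles a type I receptor but lacks the kinase domain, and its own transcription is known to respond to BMP signals. It measured 54.1, 51.8 and 50.7 FPKM in the controls and 72.4, 73.5 and 71.1 FPKM in the mutants. The 2 groups were far apart relative to their spread, and no other of the 10 genes had so small a spread on the log2 scale in the mutants. Bambi rose 1.38-fold (52.2 ± 1.72 to 72.3 ± 1.17 FPKM, SD, n = 3 per group), with a log2 change of 0.46 (SE 0.07, 95% interval 0.29 to 0.64) and a limma adjusted p of 0.0272. The call ended without any 1 of the control libraries and without mutant library 2 (adjusted p 0.0944 to 0.14), while the log2 change remained between 0.44 and 0.49. The pseudogene Bambi-ps1, which could share reads with it, had control and mutant means of 1.18 ± 0.16 and 0.902 ± 0.317 FPKM (limma adjusted p = 0.506).

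Grem1 encodes gremlin, a secreted protein that binds BMP2, BMP4 and BMP7, and lies on chromosome 2 from 113748675 to 113758648. It was the lowest of the 10, at 0.725, 1.35 and 0.755 FPKM in controls and 0.401, 0.473 and 0.446 FPKM in mutants. Every mutant value lay below every control, and control library 2 stood well above the other controls. The control mean was 2.15-fold the mutant mean. By exact permutation the 2-sided p was 0.1, the smallest that 3 against 3 libraries can reach. With no filter on low genes, limma gave a log2 change of -0.42 and an adjusted p of 0.168. The summed level of 7 neural marker genes was also highest in control library 2, at 60.4 FPKM against 29.0 and 31.0 FPKM in the other controls, and its part in the Grem1 value was not tested.

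Smad6 and Smad7 encode inhibitory SMADs that block the receptors, and both are known as feedback targets of the pathway. Smad6, on chromosome 9 from 63953076 to 64022059, measured 18.8, 16.9 and 15.8 FPKM in controls and 18.4, 21.3 and 25.4 FPKM in mutants. Mutant library 1 fell within the control range and the other mutants lay above it. The log2 change was 0.32 (SE 0.13, 95% interval 0.01 to 0.63, limma adjusted p = 0.208), and 0.20 without mutant library 3. Smad7 measured 3.97, 4.1 and 4.37 FPKM in controls and 3.08, 4.19 and 4.74 FPKM in mutants. The controls lay inside the wider range of the mutants, with a log2 change of -0.05 (95% interval -0.40 to 0.29, adjusted p = 0.862), and this small value was above 0 with the rescaling and without mutant library 1.

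Id1 and Id3 encode inhibitors of basic helix-loop-helix transcription factors and are direct targets of SMADs activated by BMPs. Id3, on chromosome 4 from 136143822 to 136145392, was the most abundant of the 10, at 751, 754 and 605 FPKM in controls and 787, 786 and 823 FPKM in mutants. The mutants lay above all controls, of which control library 3 was low. The log2 change was 0.19 (SE 0.10, 95% interval -0.05 to 0.43, limma adjusted p = 0.319). It was 0.085 without control library 3 and 0.37 with quantile normalization (adjusted p = 0.0562). Id1, on chromosome 2 from 152736251 to 152737410, measured 99.1, 97.7 and 69.8 FPKM in controls and 90.5, 83.3 and 84.7 FPKM in mutants. Control library 3 was again the lowest, and the mutants lay inside the control range. The log2 change of Id1 was -0.03 (95% interval -0.36 to 0.30, adjusted p = 0.93), an interval that leaves room for changes of either sign, and the value was above 0 with the rescaling, with quantile normalization and without control library 1 or 2.

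Ratios between the genes within a library remove any scaling of whole libraries. 8 such ratios were formed, chosen with the values known, and they are given as a description. By exact permutation none had a p under 0.1, the smallest that 3 against 3 libraries can reach. Bmp4 was higher, and Bmp5, Bmp7 and Grem1 lower, in every mutant library than in any control, so the ratios of Bmp4 to these 3 genes had to separate the groups. Bmp4 was 29.3, 13.9 and 23.3 times as high as Grem1 in controls and 53.8, 50.3 and 63.5 times in mutants. It was 3.30, 2.56 and 2.62 times as high as Bmp7 in controls and 3.93, 4.11 and 5.06 times in mutants. The groups were also apart in the ratios of Bmp4 to Bmp2, of Smad6 to Smad7 and of Id3 to Id1, which the single genes did not fix. For Id3 to Id1 they nearly met, at 8.67 in control library 3 and 8.70 in mutant library 1. The ratio of Bmp4 to Bmp2 was lower in mutants, from 14.3, 22.5 and 14.2 in controls to 8.31, 9.49 and 11.9 in mutants. The ratios of Bmp4 to Smad6 and of Bambi to Bmp4 overlapped between the groups.

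**Figure D2:**
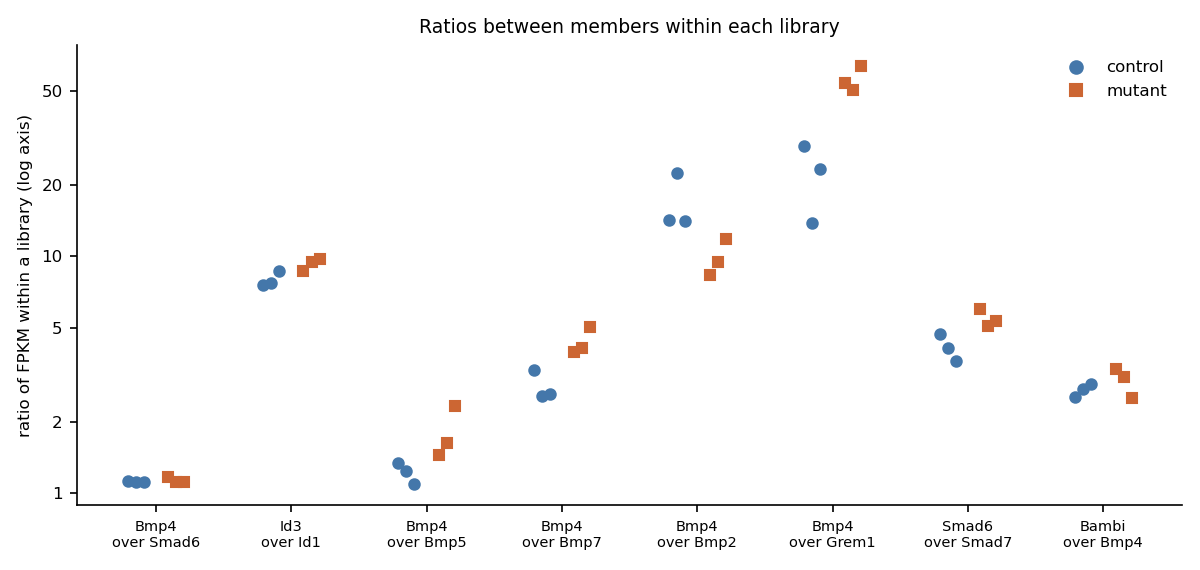
Ratio of the FPKM of 2 genes within each library (vertical log axis) for 8 pairs, with 3 control libraries as circles and 3 mutant libraries as squares. The ratio of Bmp4 to Smad6 lies between 1.11 and 1.17 in all 6 libraries, while the ratio of Bmp4 to Grem1 runs from 13.9 to 29.3 in controls and from 50.3 to 63.5 in mutants.

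The ratio of Bmp4 to Smad6 varied least of the 8, at 1.13, 1.11 and 1.12 in controls and 1.17, 1.11 and 1.12 in mutants. Likeness to Bmp4 was measured over the tested genes, 768 gene models named Gm, Rik, Mir, Snor or Rn left out, as the root mean square difference, across the 6 libraries, of log2(FPKM + 1) after each gene was centred on its mean. Of 11973 genes compared, Smad6 was the nearest, with a difference of 0.025 on the log2 scale. Next came Nfatc4 (0.0295), Nek8 (0.0296), Foxn3 (0.0368) and Trpm4 (0.0384). Bambi ranked 1201 and Id3 933, with differences of 0.143 and 0.134, while Bmp5 and Bmp7 were farther off, at 0.332 and 0.324. All 6 genes of the closest set were highest in mutant library 3, and their mutant values were lowest in library 1, an order that 25.9% of all tested genes shared. The match therefore uses library differences inside each group as well as the difference between groups, and it is given as a description with no test.

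**Figure D3:**
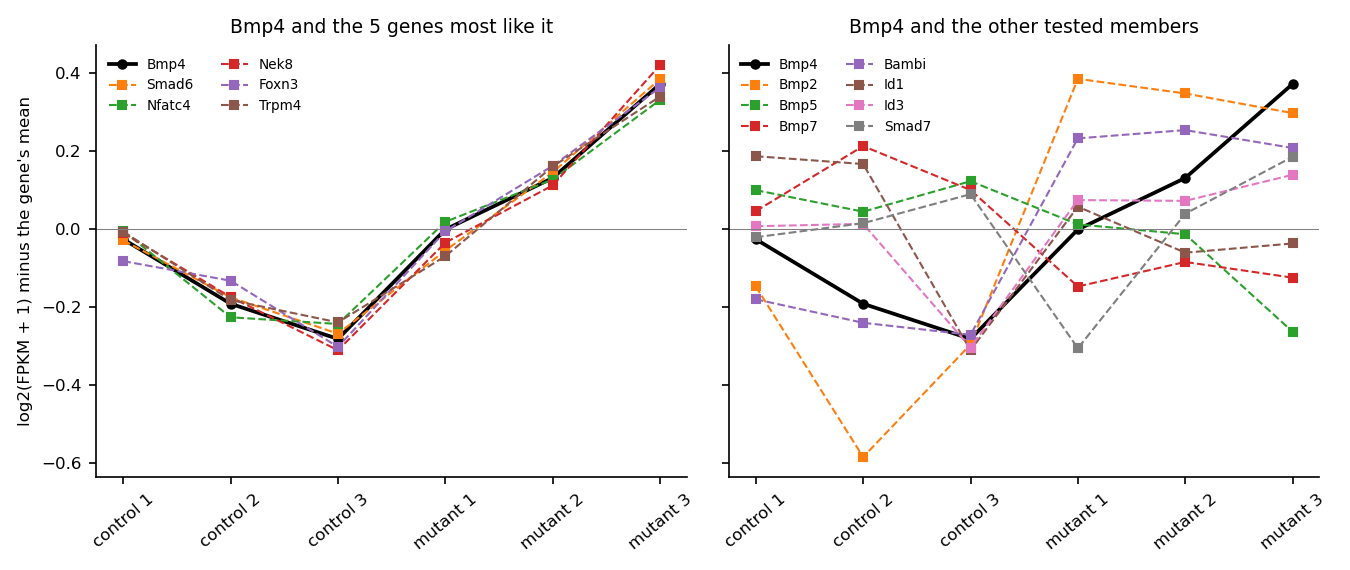
Each library's log2(FPKM + 1) minus the gene's mean over 6 libraries (vertical axis), for Bmp4 with the 5 genes nearest to it (left) and with the other tested BMP genes (right); lines join the libraries only to trace a gene. Smad6 runs along Bmp4 in every library, whereas Bmp2 and Bambi separate the groups more sharply and Bmp5, Bmp7 and Id1 follow other courses.

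Since Bmp4 and Smad6 moved together, the sequence around their start sites is shown. Both windows are from RefSeq (GRCm38.p6), run from 250 bases before to 50 bases after the annotated start, and are written 5′ to 3′ on the strand of the gene, which is the minus strand for both: chr14:46390620-46390919 for Bmp4 and chr9:64022010-64022309 for Smad6. Capitals mark GGAGCC or its reverse complement GGCTCC, a GC-rich variant of the site bound by SMADs.
Bmp4: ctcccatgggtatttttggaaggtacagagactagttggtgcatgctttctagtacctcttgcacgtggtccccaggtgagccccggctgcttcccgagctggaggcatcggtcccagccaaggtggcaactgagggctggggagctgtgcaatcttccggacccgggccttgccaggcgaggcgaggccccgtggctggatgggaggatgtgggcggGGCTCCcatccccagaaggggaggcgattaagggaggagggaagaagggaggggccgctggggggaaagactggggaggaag
Smad6: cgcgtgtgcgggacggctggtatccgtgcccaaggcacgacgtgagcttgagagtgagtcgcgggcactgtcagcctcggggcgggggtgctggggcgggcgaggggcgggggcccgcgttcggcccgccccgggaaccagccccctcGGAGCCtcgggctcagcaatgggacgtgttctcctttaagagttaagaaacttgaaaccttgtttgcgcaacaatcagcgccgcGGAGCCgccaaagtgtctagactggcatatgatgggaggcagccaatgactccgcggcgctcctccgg
The motif GGAGCC (both strands) occurred at position -32 of the Bmp4 window, counted from the start site, and at positions -102 and -18 of the Smad6 window. The palindrome GGCGCC, the other GC-rich SMAD motif searched, occurred in neither. Over 32851 promoter windows of the same length, 30.8% held GGAGCC and 11.9% held GGCGCC, so a match is common. GC content was 64% and 66.3% in these windows, where the median of all windows was 52.7%. Windows were found for 5 of the 10 genes, the others being Bmp5, Grem1 and Id3. The Id3 window held GGAGCC at position -187, Grem1 held GGCGCC at position -78, and these letters were absent from the Bmp5 window.

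Other genes of the pathway were listed by role, 48 in all, of which 36 passed the filter. Of these 36, 2 rose and 0 fell, with a median log2 change of 0.10, beside 3.34% of all tested genes that changed. The groups did not overlap for 9 of the 36, 8 higher and 1 lower in mutants, a share no higher than the 29.5% of all tested genes (14.9% higher, 14.6% lower). Gdf10, a divergent ligand also called BMP3B, measured 6.42, 5.35 and 5.69 FPKM in controls and 11.7, 14.8 and 10.5 FPKM in mutants. All mutants were well above the controls, and Gdf10 rose 2.12-fold (log2 change 0.96, SE 0.14, limma adjusted p = 0.0201). Kcp, which encodes a secreted chordin-like modulator of BMP and TGF-beta signals, measured 7.08, 6.23 and 6.26 FPKM in controls and 9.32, 11.4 and 11.7 FPKM in mutants. It rose 1.66-fold (log2 change 0.65, SE 0.12, limma adjusted p = 0.0365). The call of Gdf10 ended without any 1 control library or mutant library 2 (adjusted p 0.0741 to 0.115) and that of Kcp also without mutant library 3 (0.071 to 0.167). The call of Kcp ended as well with no filter (adjusted p = 0.0643) and with quantile normalization (adjusted p = 0.055), where Fstl1 passed instead. Without mutant library 1 the receptor gene Acvr1 passed as well.

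Next by unadjusted p were Bmper, Acvr1, Gdf5 and Fstl1, all with mutants above the controls and none past the threshold. Bmper, a secreted BMP-binding protein gene, measured 28.3 ± 2.39 and 37.8 ± 2.89 FPKM in controls and mutants (SD, n = 3 per group, limma adjusted p = 0.0748). Acvr1, which encodes a type I receptor for BMP7 and related ligands, measured 9.13 ± 0.423 and 12.4 ± 1.25 FPKM (adjusted p = 0.0888). The ligand gene Gdf5 measured 5.19 ± 1.14 and 8.25 ± 1.04 FPKM (adjusted p = 0.0935). Fstl1, a follistatin-like gene and the most abundant of the antagonist list, measured 191 ± 10.7 and 227 ± 11.3 FPKM (adjusted p = 0.134). After removal of globin and small RNA genes and rescaling, these 4 also passed, so 6 of the 36 rose on that scale. On it 6.67% of all tested genes were called higher, and their median log2 change was 0.11.

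The receptors and effector SMADs showed 0 calls by limma. As 3.34% of all tested genes were called, 0 calls in lists this short lie near that share. An unadjusted p under 0.05 was found for 1 of 10 receptor genes (Acvr1) and 0 of 3 tested effector genes. The share over all tested genes was 23%. Bmpr1a, the type I receptor gene with the highest level, measured 39.1, 42.0 and 41.3 FPKM in controls and 48.8, 35.5 and 28.1 FPKM in mutants. The mutants spread to both sides of the controls, with mutant library 1 high and mutant library 3 low, the reverse of Bmp4 and Smad6. The type II receptor gene Bmpr2 had the same arrangement, at 3.31, 1.78 and 1.34 FPKM in the mutants and 2.52 ± 0.419 FPKM in controls. In 58.2% of all tested genes, and in 23 of the 45 tested pathway genes, mutant library 2 lay between mutant libraries 1 and 3. Smad4, the effector shared with TGF-beta signalling and the most abundant of its list, measured 58.8 ± 3.2 in controls against 61.6 ± 3.87 FPKM in mutants (adjusted p = 0.701). Of 7 further response genes tested, 0 passed, and Id2, the most abundant, measured 196 ± 26.9 and 214 ± 44.6 FPKM (adjusted p = 0.752).

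**Figure D4:**
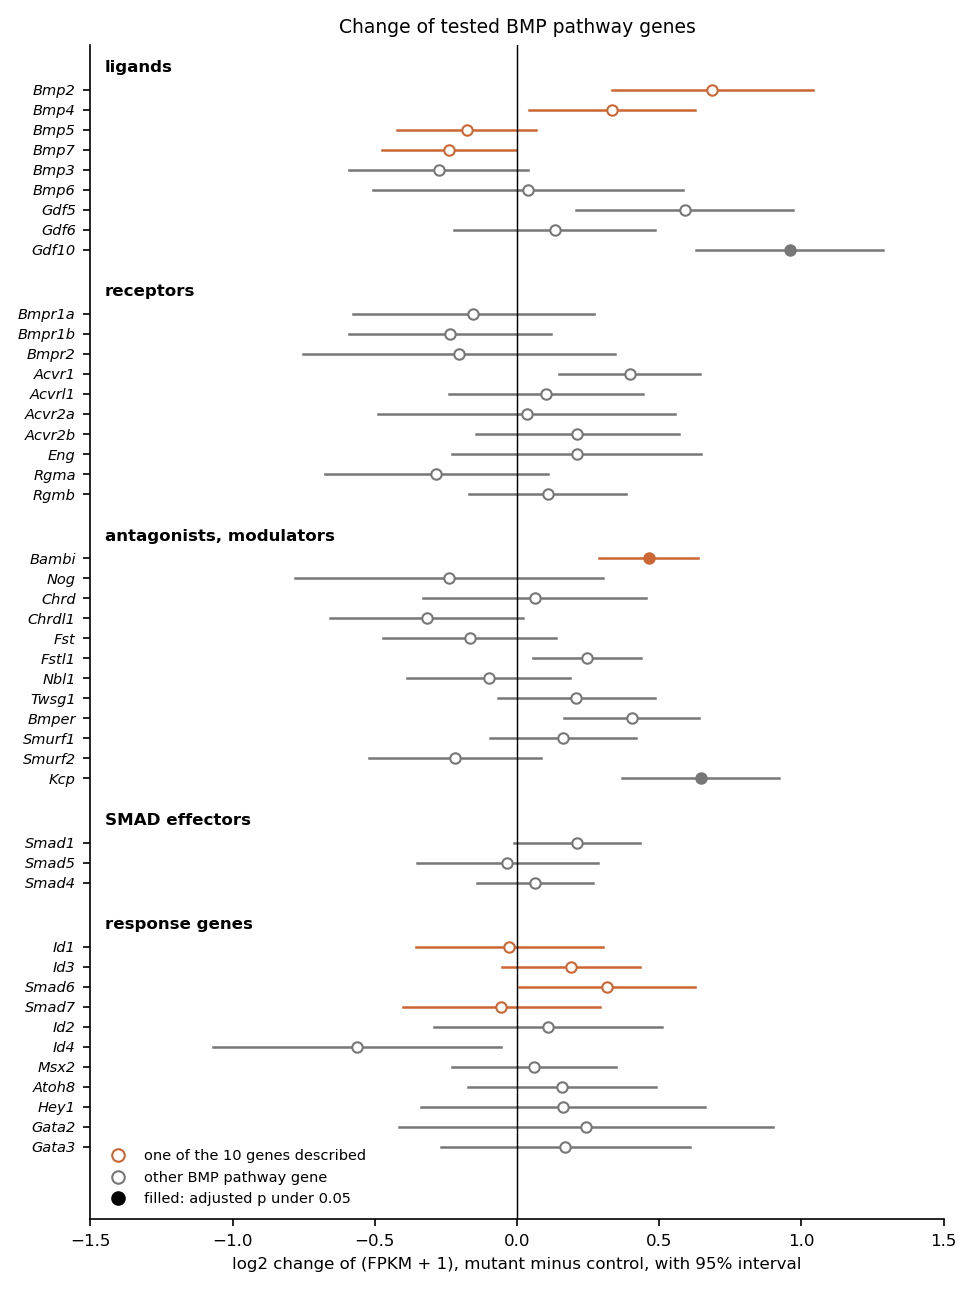
Log2 change of FPKM + 1, mutant minus control, with its 95% interval (horizontal axis) for the 9 tested genes described (orange) and 36 other tested BMP pathway genes (grey), by role; filled circles have a limma adjusted p under 0.05. Bambi, Gdf10 and Kcp are filled, and no gene is filled on the lower side.

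Markers of other cell types differed between the same groups. Over all tested genes limma called 3.34% (1.71% rose and 1.63% fell), and counts of 0 or 1 in short lists are a description only. Epithelial markers fell for 9 of 12 genes, and their sum was 292 to 364 FPKM in controls and 81.1 to 118 FPKM in mutants. Mesenchymal markers rose for 4 and fell for 2 of 12, with sums of 977 to 1195 and 1416 to 1688 FPKM. These sums rest mostly on Col1a1, Col1a2 and Col3a1, with control means of 176, 168 and 379 FPKM and mutant means of 311, 287 and 605 FPKM. The 2 that fell were Foxf1 (71.2 to 34.6 FPKM) and Wnt2 (87.5 to 49.4 FPKM), so the sum does not describe the whole list. In whole lungs, fewer cells of a type and less RNA per cell cannot be told apart. Smad6, Id1 and Id3 are also known from endothelium. Endothelial markers rose for 1 of 8 and summed to 142 to 164 FPKM in controls and 168 to 196 FPKM in mutants. Macrophage markers rose for 2 of 7 (sums 106 to 135 and 174 to 229 FPKM), and mesothelial markers for 1 of 5 tested (363 to 404 and 397 to 482 FPKM). Smooth muscle and neural markers changed for 0 of 7 each by limma (1 and 0 at an unadjusted p under 0.05). Over all tested genes 23% had such an unadjusted p. Erythroid markers fell for 2 of 8 (21249 to 39435 and 13545 to 17341 FPKM). Heart muscle markers rose for 1 of 4 tested (156 to 204 and 255 to 364 FPKM). The heart ligand gene Bmp10, too low to be tested, was at no more than 0.105 FPKM in any library, which says nothing on these markers. None of these marker genes was at the table's lowest value in all 6 libraries, and their part in the values of the BMP genes was not tested.

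**Figure D5:**
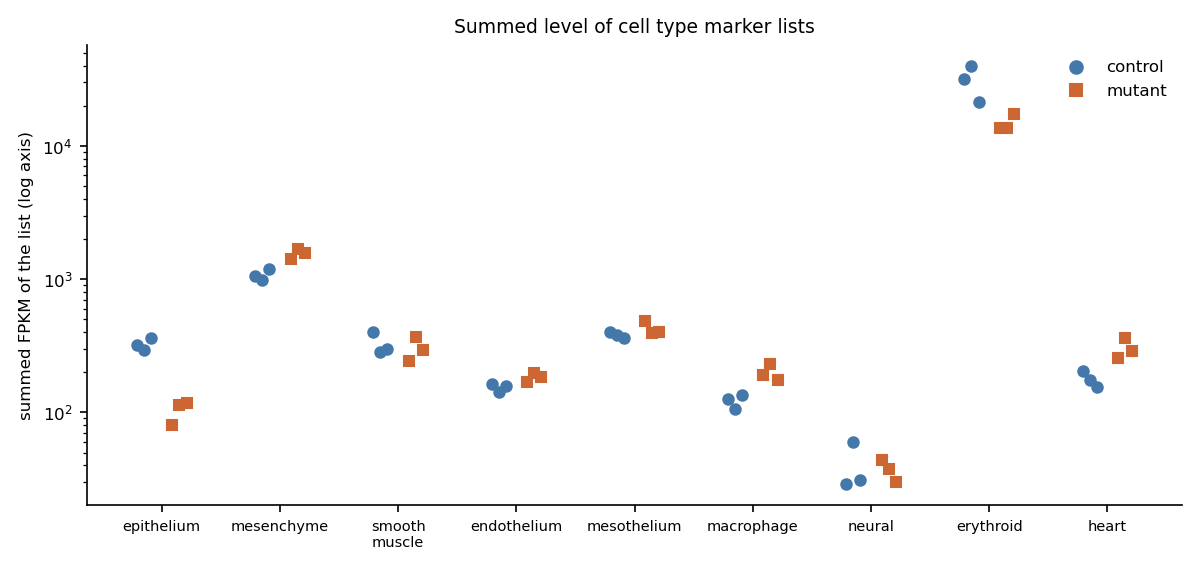
Summed FPKM (vertical log axis) of 9 lists of cell type markers in 3 control (circles) and 3 mutant (squares) libraries. The epithelial sum is lower in every mutant library and the mesenchymal, endothelial, macrophage and heart sums are higher. The smooth muscle, mesothelial and neural sums overlap, and the mesenchymal sum rests mostly on Col1a1, Col1a2 and Col3a1.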

How the data were processed

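RNA-seq had been done on 6 libraries of dissected lungs (SMARTer Ultra Low Input cDNA, Nextera indices, 75 bp paired-end reads on a NextSeq), per the labels' protocols. The deposited values are FPKM per gene, made by the authors with TopHat, Bowtie2 and Cufflinks on mm10 (GRCm38), per the submitters' processing notes; the sources used here give no versions, roles or annotation. The lowest value listed was 0.01 FPKM, and 3 genes marked as failed in 1 library were left out. Positions are the deposited loci, counted from 1, except where GENCODE or RefSeq is named.

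Groups came from the sample titles. Values were taken as log2(FPKM + 1), which understates changes of low genes, and folds are ratios of group means of FPKM. Genes averaging 1 FPKM or more were fitted by limma 3.58.1 (R 4.3.3) with an intensity trend. Simulated data for 12742 genes held independent values, with 67, 67 and 66 genes changed by 0.5, 1 and 2 on the log2 scale. Of these, 8.96%, 85.1% and 98.5% were recovered, and 8.57% of calls were false. In the real data 23% of tested genes had an unadjusted limma p under 0.05, so these shares need not hold there. Relative depth came from values up to 0.3 FPKM. Overlapping genes were read from GENCODE M21. The 10 genes and all lists were chosen with earlier results of these data known. Named beyond the 10 are called pathway genes, the 6 with the smallest unadjusted p, the most abundant of each role, and the 5 genes most like Bmp4. Bmpr2, Bmp10, the named marker genes and the genes of the last paragraph were chosen after their values were seen. Some genes of the lists are not reported here. Plots used Python 3.11.15 and matplotlib 3.10.9.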

Additional observations from a re-analysis of the deposited data

How the results depend on the processing

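Each tested gene of the 10 was refitted under 14 or 15 alternatives (other pseudocounts, filters, scalings and variance settings, a block, and each library left out), 133 fits in all, of which 119 kept direction and side of the threshold. Bmp4, Bmp5, Bmp7, Id3 and Smad6 did so in all of theirs, with Bmp4 at 0.23 to 0.46, Id3 at 0.085 to 0.37, Smad6 at 0.20 to 0.44, Bmp5 at -0.23 to -0.056 and Bmp7 at -0.28 to -0.13. Bambi stayed at 0.44 to 0.59; its adjusted p was over 0.05 in 5 fits, with the replicate block (log2 change 0.46, adjusted p = 0.129) and in 4 of the 6 fits without 1 library (0.44 to 0.49). Bmp2 stayed at 0.57 to 1.04 and passed in 3 of its 14 fits. These used the rescaling without globin and small RNA genes (0.78, adjusted p = 0.0224), no intensity trend (0.69, 0.0464) and robust variance estimates (0.69, 0.0429). In the other 11 its limma adjusted p was over 0.05 and reached 0.183 (without mutant library 2). Id1 changed sign with the rescaling (0.101), with quantile normalization (0.069), and without a library (range -0.19 to 0.059). Smad7 changed sign with the rescaling (0.050) and without a library (range -0.161 to 0.085). In each case the cause was not tested.

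The number of the 10 genes called (1) became 2 with the rescaling, no trend or robust estimates, 0 with the replicate block, and 0 to 1 without 1 library. The number of other pathway genes called (2) became 1 with no filter, 6 with the rescaling, 0 with the replicate block, and 0 to 3 without 1 library. Over all genes, 426 calls became 242 with no filter, 1017 with the rescaling, 52 with the replicate block, and 52 to 795 without 1 library. Deviations of same-numbered libraries had correlations of -0.09, -0.08 and -0.03 over genes, and those of differently numbered libraries -0.03 to 0.09. The labels do not say what the numbers mean, and these correlations cannot settle whether they pair the libraries. The block also removes degrees of freedom, and why calls were lost with it was not tested. Genes near 1 FPKM, such as Bmp2 and Grem1, carry the larger counting error, most of all in control library 3 and mutant library 1.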

Other observations

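Of the 48 other pathway genes, 12 lay under the filter at means of 0.036 to 0.919 FPKM and were not tested. Sostdc1 and Bmp8b are named because every mutant library lay below every control, and were chosen after their values were seen. Sostdc1, which encodes a secreted antagonist of BMP and WNT signals, measured 1.04, 2.55 and 0.909 FPKM in controls and 0.297, 0.438 and 0.276 FPKM in mutants. As for Grem1, control library 2 was the highest. The ligand gene Bmp8b was near the lowest listed values, with 0.126 ± 0.0262 in controls against 0.031 ± 0.0109 FPKM in mutants (SD, n = 3 per group). The control mean was 4.46-fold the mutant mean for Sostdc1. These levels are too low to say more at this depth.

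Id4, a relative of Id1 and Id3, had the lowest log2 change of the tested pathway genes, at -0.56 (SE 0.22, 95% interval -1.07 to -0.06, limma adjusted p = 0.177). It measured 10.6, 11.4 and 7.22 FPKM in controls and 7.35, 7.02 and 4.43 FPKM in mutants. Mutant library 1 lay within the control range, and control library 3, which was also lowest among controls for Id1 and Id3, was the lowest control.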
